A study of Mus musculus with 6 samples.

Results

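Selenoproteins carry selenocysteine, the amino acid that places selenium in the active site of antioxidant and redox enzymes. The genes described here are the 24 mouse selenoprotein genes and 7 further genes for making, recycling or inserting selenocysteine, chosen by symbol. All 31 had a row among the 21965 genes of the deposited expression table. RNA of mouse lung tissue, by its label, was sequenced as 3 Aa-flox and 3 Aa-cko libraries. What Aa stands for is not spelled out, and no label gives the deleted gene, the Cre line, strain, age, sex or treatment of the animals, so nothing more can be said of either group as a model. The series title names Lkb1 (gene symbol Stk11), ferroptosis, group 2 innate lymphoid cells and alpha tocopherol, the main form of vitamin E. The question taken up is whether the lower Gpx4 level of the Aa-cko libraries was shared by the other selenoproteins.

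Selenocysteine is encoded by UGA, which otherwise ends translation. It is read through when a hairpin in the 3′ untranslated region of the mRNA, the SECIS element, recruits the binding protein SECISBP2, the elongation factor EEFSEC and a dedicated tRNA. GPX4 reduces lipid hydroperoxides within membranes at the expense of glutathione and is the central enzyme that holds back ferroptosis, the iron-dependent death of cells by lipid peroxidation. Vitamin E traps lipid peroxyl radicals in the same membranes. Selenoproteins compete for selenium, and when it is short the mRNAs and proteins of some, such as Gpx1, are known to be lost before those of others, such as Gpx4.

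The coding sequence around the UGA codon is shown for the members on which the results turn, as the feature that marks them as one class. Each window was read from the GENCODE M21 transcript (mm10), 5′ to 3′ on the sense strand, with 15 bases on either side of the codon where the coding sequence reaches that far, and with the selenocysteine codon in capitals as TGA. The 4 glutathione peroxidases come first, followed by the other selenoproteins that were higher in Aa-cko and by Txnrd1, whose codon is the last but one before the stop.
Gpx4: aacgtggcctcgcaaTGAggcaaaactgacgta
Gpx1: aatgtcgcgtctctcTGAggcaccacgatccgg
Gpx2: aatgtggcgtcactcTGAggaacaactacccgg
Gpx3: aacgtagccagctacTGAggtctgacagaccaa
Msrb1: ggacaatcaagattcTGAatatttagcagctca
Selenop: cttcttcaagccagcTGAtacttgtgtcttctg
Selenof: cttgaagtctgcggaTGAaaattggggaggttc
Sephs2: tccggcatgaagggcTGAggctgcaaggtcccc
Txnrd1: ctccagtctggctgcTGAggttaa
The windows of Gpx4 and Gpx1 share 19 of 33 bases and those of Gpx1 and Gpx2 share 27, counts that include the TGA itself. The codon of Gpx4 lies at chr10:80054737-80054739 (plus strand), as codon 73 of 197, and that of Gpx1 at chr9:108339451-108339453 (plus strand), as codon 47 of 201. Selenop holds 10 such codons, the first at chr15:3274848-3274850 (plus strand).

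Gpx4 was lower in the Aa-cko libraries. The gene (ENSMUSG00000075706, chr10:80047166-80056439, plus strand) read 281, 194 and 236 FPKM in Aa-flox replicates 1, 2 and 3, and 70.3, 109 and 78.3 FPKM in Aa-cko. FPKM is a count of fragments scaled by the length of the gene and by the mapped fragments of the library. The groups did not overlap, and every Aa-cko library was below every Aa-flox library. The mean level fell from 237 ± 43.5 to 85.7 ± 20.2 FPKM (SD, n = 3 each), so that Aa-flox was 2.77-fold higher. On the log2 scale the fall was -1.47 ± 0.18 (SE; 95% interval -1.86 to -1.07), and limma gave an adjusted p of 0.000258. Of the 10849 genes tested, 81 (0.747%) had a larger fall. In bulk RNA, fewer cells of a type that expresses Gpx4 and less Gpx4 RNA per cell cannot be told apart. In the annotation 3 Gpx4 transcripts hold the UGA codon, and a value for the whole gene does not separate the cytosolic, mitochondrial and nuclear forms of the enzyme.

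Each log2 fold change is the Aa-cko mean of log2(FPKM + 1) less that of Aa-flox, a scale on which changes of low genes come out too small. Genes under an adjusted p of 0.05 over all tested genes are called higher or lower. The 6 libraries held 14.1 to 17.3 M fragments, inferred from how the lowest values are spaced, and between 10608 and 10801 genes were at 1 FPKM or more. Whether replicates are separate animals is not labelled, so the p-values cover the spread among these samples alone, and that spread may be technical. Stk11 itself was not lower (57.2 FPKM in Aa-flox, 59.4 in Aa-cko, log2 0.05 ± 0.11, adjusted p = 0.721), and its sign turned without Aa-flox replicate 3, so every direction given here rests on the labels. A value for the whole gene in bulk RNA may miss a loss in some cells or exons, which was not tested. Sftpc, the surfactant gene that defines type 2 alveolar cells, read 2.23 to 4.58 FPKM over the libraries. Napsa, another gene of type 2 cells, read 23.3 to 58.7 FPKM and Scgb1a1, of airway epithelium, 111 to 167 FPKM. In Aa-flox, Trac, of T cells, averaged 421 FPKM and Chil3, of alveolar macrophages, 2551 FPKM. Markers of leukocytes thus stood far above Sftpc, so the levels given here may not be those of whole lung tissue, which was not tested.

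No other selenoprotein gene was called lower, and none fell as far as Gpx4. Of the 24 genes, 19 passed the filter of 1 FPKM in 3 libraries. Gpx4 alone was lower (5.26% of the 19, against 23.2% of all genes tested). Gpx1, Msrb1, Selenop, Sephs2 and Selenof, 26.3% of the 19, were higher, against 19.2% of all genes. The test was not passed by 13, whose fold changes ran from -0.25 to 0.60 (log2). For all 18 other selenoproteins the 95% interval lay above that of Gpx4: the lowest bound among them was -0.60, for Selenoi, against an upper bound of -1.07 for Gpx4. Over all 26 tested members, machinery included, 6 were higher and 3 lower (42.4% of all genes were called in either direction), 17 did not pass, and the median log2 fold change was 0.13, beside -0.05 for all tested genes. Groups did not overlap for 12 of the 26 (46.2%), beside 53.3% of all genes.

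**Figure D1:**
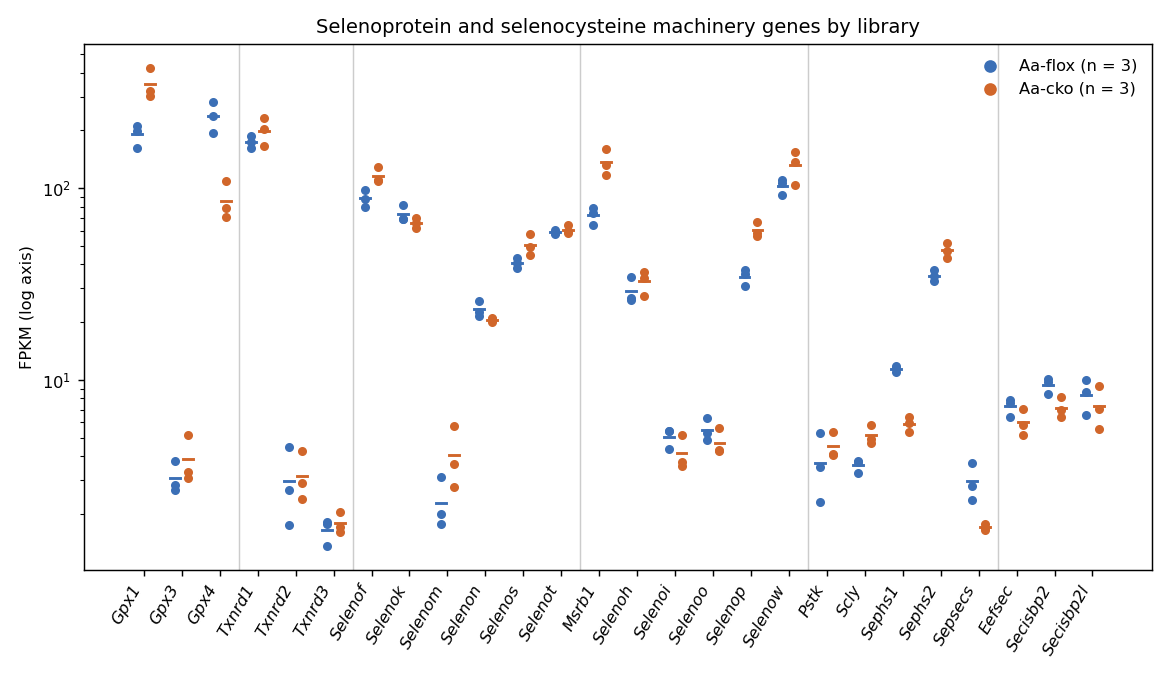
Level of the 26 tested members in each library, in FPKM on a log axis, ordered by role (grey lines part the roles). Points are libraries and bars are group means of 3. Gpx4 is the selenoprotein whose Aa-cko points all lie far below those of Aa-flox, while Gpx1, Msrb1 and Selenop show the opposite order.

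**Figure D2:**
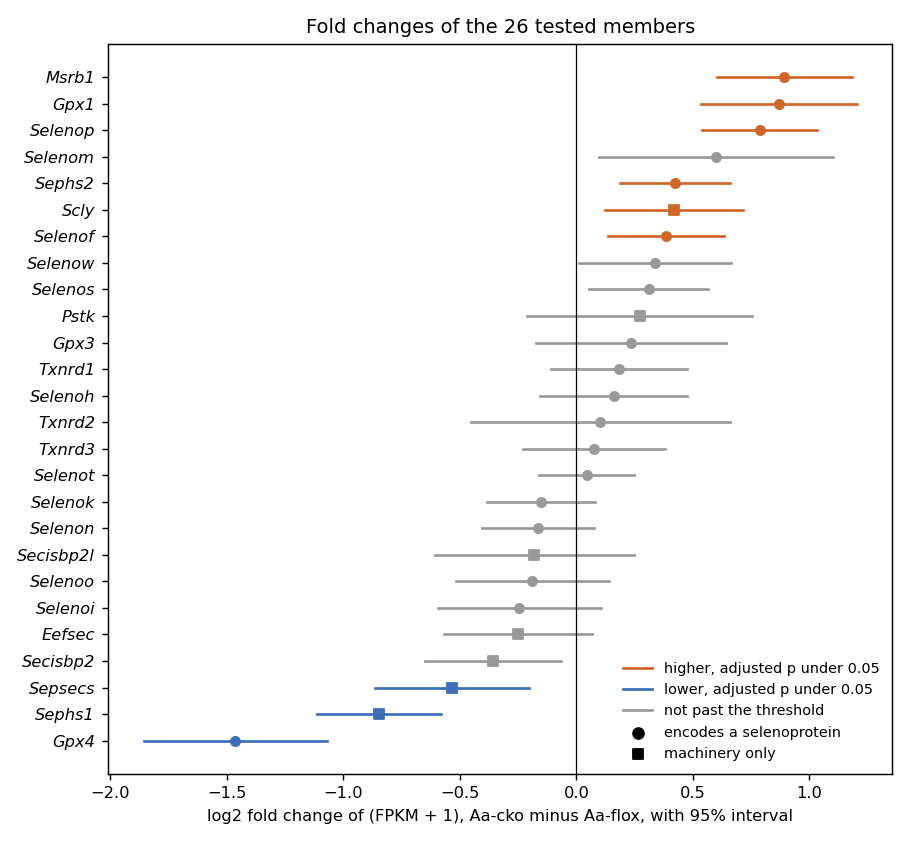
Log2 fold change of (FPKM + 1), Aa-cko minus Aa-flox, for the 26 tested members, with 95% intervals from limma. Circles are selenoprotein genes and squares are genes of the machinery, and the interval of Gpx4, from -1.86 to -1.07, lies below those of the other 18 selenoproteins.

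Among glutathione peroxidases, Gpx1 moved against Gpx4. Gpx1 (ENSMUSG00000063856, chr9:108338903-108340343, plus strand) encodes the abundant cytosolic enzyme that reduces hydrogen peroxide and soluble hydroperoxides. It read 211, 199 and 161 FPKM in Aa-flox and 322, 423 and 304 in Aa-cko, with no overlap. Its mean rose 1.84-fold, from 190 ± 26.3 to 350 ± 64.3 FPKM (n = 3 each, log2 0.87 ± 0.15, limma adjusted p = 0.00163). Gpx3, the secreted plasma enzyme, lay between 2.66 and 5.16 FPKM in overlapping groups and did not pass (log2 0.23, 95% interval -0.17 to 0.64). Gpx2, the enzyme of gut epithelium, stayed under 1 FPKM in every library, between 0.352 and 0.853, and was not tested. Levels of different genes rest on the gene lengths behind the authors' values, which are unknown here, so the size of a ratio between genes is uncertain, while its change between libraries does not depend on a fixed length. On the FPKM scale Gpx4 was at 1.33, 0.974 and 1.47 times the level of Gpx1 in the Aa-flox libraries and at 0.218, 0.257 and 0.258 times in the Aa-cko libraries.

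The make-up of the summed selenoprotein transcripts changed accordingly. The 24 genes together held 1121 to 1264 FPKM in Aa-flox and 1292 to 1524 in Aa-cko, so the sum did not fall with Gpx4. Gpx4 made up 16.7 to 22.2% of that sum in Aa-flox, where it ranked 1, 2 and 1 among the 24 genes, and 5.33 to 7.12% in Aa-cko, where it ranked 6 in each library. Gpx1 went from 14.3 to 17.2% of the sum to 23.5 to 27.8%. These are sums of levels, described without a test, and shares and ranks carry the same uncertainty of length.

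**Figure D3:**
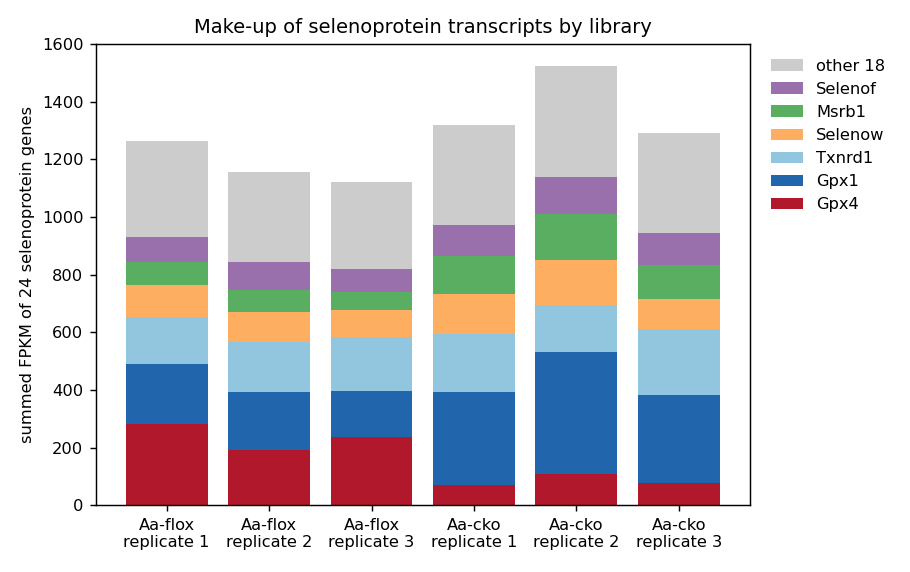
Summed FPKM of the 24 selenoprotein genes in each library, on a linear axis from 0, split by gene. The Gpx4 segment shrinks from 194 to 281 FPKM in the Aa-flox libraries to 70.3 to 109 FPKM in the Aa-cko libraries, while the whole bar is not shorter.

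Msrb1 and Selenop were higher as well. Msrb1 (ENSMUSG00000075705, chr17:24736642-24742778, plus strand) encodes methionine-R-sulfoxide reductase B1, which repairs oxidised methionine and acts on actin in macrophages. Its level was 78.6, 74.5 and 64.4 FPKM in Aa-flox against 132, 159 and 118 in Aa-cko, the lowest Aa-cko library standing well above the highest Aa-flox library. This is a 1.88-fold rise of the mean (log2 0.89 ± 0.13, limma adjusted p = 0.000627). Selenop (ENSMUSG00000064373, chr15:3268547-3280508, plus strand) encodes the secreted selenium carrier, and read 35.8, 37.2 and 30.7 FPKM in Aa-flox and 56.3, 66.3 and 58.2 in Aa-cko. The groups did not overlap, with a 1.74-fold rise (log2 0.79 ± 0.11, limma adjusted p = 0.000544). The Selenop gene shares exonic bases with Ccdc152 on the opposite strand, which read under 0.1 FPKM on average in both groups. The rest of the mixed group did not pass. Selenow, a small thioredoxin-like protein, ranged from 92.2 to 111 FPKM in Aa-flox and from 104 to 154 in Aa-cko (log2 0.34 ± 0.15, adjusted p = 0.087). It passed without Aa-cko replicate 3 (log2 0.50, adjusted p = 0.00572), under upper quartile scaling (adjusted p = 0.0492) and with a replicate block (0.00991). The range over all alternatives was from 0.00572 to 0.24. Selenoh, a nucleolar redox protein, had log2 0.16, Selenoi, an ethanolamine phosphotransferase of phospholipid synthesis, -0.25, and Selenoo, a mitochondrial AMPylase, -0.19. Selenov, a testis protein, was listed at 0 in all libraries.

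Thioredoxin reductases, which keep thioredoxin reduced, did not pass the test. Txnrd1, the cytosolic enzyme, was abundant at 162, 174 and 187 FPKM in Aa-flox and 203, 165 and 231 in Aa-cko, with overlapping groups (log2 0.18 ± 0.13, 95% interval -0.11 to 0.48, limma adjusted p = 0.282). Without Aa-cko replicate 2 it passed upward (log2 0.31, adjusted p = 0.0452), the smallest value in a range up to 0.655 over all alternatives. Txnrd2, the mitochondrial enzyme, had log2 0.10 (95% interval -0.45 to 0.66) and Txnrd3, of testis, 0.08 (-0.23 to 0.38). Their signs turned without single libraries, Txnrd2 to -0.13 without Aa-flox replicate 3 and to -0.07 without Aa-cko replicate 2, and Txnrd3 to -0.01 without Aa-flox replicate 2. Both were at 1.36 to 4.49 FPKM.

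Of the 6 selenoproteins of the endoplasmic reticulum, Selenof rose and the others did not pass. Selenof (ENSMUSG00000037072, chr3:144570304-144597680, plus strand) binds the glycoprotein folding sensor UGGT. It read 87.8, 97.3 and 80.1 FPKM in Aa-flox and 110, 129 and 109 in Aa-cko, without overlap and by 1.31-fold (log2 0.39 ± 0.11, limma adjusted p = 0.0198). The call was lost without Aa-flox replicate 1 (log2 0.38, adjusted p = 0.0548) and without Aa-flox replicate 3 (log2 0.32, adjusted p = 0.0767), the highest of a range that began at 0.00244. Selenos, a partner of the machinery that exports misfolded proteins, ranged from 38.1 to 43.0 FPKM in Aa-flox and from 44.9 to 57.9 in Aa-cko, and just missed the threshold (log2 0.31 ± 0.11, adjusted p = 0.0513). It passed without Aa-cko replicate 3 (log2 0.39, adjusted p = 0.0187) and under upper quartile (0.0246) and median of ratios scaling (0.0369). It also passed with a filter of mean 5 FPKM (0.0468) and with a replicate block (0.0153). Its range over all alternatives was 0.0153 to 0.145. Selenom, a thioredoxin-like protein best known from brain, was at 1.77 to 3.10 FPKM in Aa-flox and at 2.76 to 5.78 in Aa-cko, in overlapping groups (log2 0.60 ± 0.23, adjusted p = 0.0555). It passed without Aa-flox replicate 2 (log2 0.77, adjusted p = 0.0364) and without Aa-cko replicate 3 (log2 0.79, adjusted p = 0.0105). It also passed under upper quartile scaling (0.0431) and with a replicate block (0.00372), within a range of 0.00372 to 0.162. Selenok, needed for calcium signalling in immune cells, had log2 -0.15 (95% interval -0.38 to 0.08). Selenon, a calcium-sensitive reductase of muscle, had -0.17 (-0.41 to 0.07). Its groups did not overlap, at 21.57 to 25.85 FPKM in Aa-flox and 19.93 to 21.12 in Aa-cko. Selenot, a thioredoxin-like protein, had 0.04 (-0.16 to 0.25), a sign that turned when libraries were scaled without the 20 most abundant genes.

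The deiodinases, which activate or inactivate thyroid hormone, were at or near 0. Dio1 was listed at 0 in the Aa-flox libraries and at 0.035 to 0.154 FPKM in Aa-cko, Dio2 lay between 0.125 and 0.212 FPKM, and Dio3 was listed at 0 throughout. None reached the filter.

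The genes that make selenocysteine moved both ways. Selenocysteine is built on its own tRNA: a seryl group is phosphorylated by PSTK and converted by SEPSECS, with selenophosphate from SEPHS2, itself a selenoprotein. Sephs2 (chr7:127271879-127274055, minus strand) read 37.5, 34.6 and 32.7 FPKM in Aa-flox and 46.7, 51.8 and 43.3 in Aa-cko, 1.35-fold higher without overlap (log2 0.42 ± 0.11, limma adjusted p = 0.00982). Its paralogue Sephs1 (chr2:4881564-4910557, plus strand), which has no selenocysteine and does not make selenophosphate, was the second largest fall of all members. It stood at 11.5, 10.9 and 11.7 FPKM in Aa-flox and 5.31, 6.39 and 5.97 in Aa-cko, with Aa-flox 1.93-fold higher (log2 -0.85 ± 0.12, limma adjusted p = 0.000526). The 2 paralogues thus moved in opposite directions in the same libraries.

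Sepsecs (chr5:52640087-52669708, minus strand) was lower, at 2.80, 2.37 and 3.68 FPKM in Aa-flox against 1.65, 1.69 and 1.77 in Aa-cko (log2 -0.53 ± 0.15, limma adjusted p = 0.0162). The groups did not overlap, but the call was lost without Aa-flox replicate 3 (log2 -0.41, adjusted p = 0.0648) and without Aa-cko replicate 1 (log2 -0.52, adjusted p = 0.0573), in a range from 0.00949. Scly, the lyase that frees selenium from selenocysteine for reuse, read 3.27, 3.74 and 3.76 FPKM in Aa-flox and 5.84, 4.93 and 4.67 in Aa-cko. Its rise (log2 0.42 ± 0.13, adjusted p = 0.0286) was among the least firm. It was lost without Aa-flox replicate 1, 2 or 3 (adjusted p = 0.0863, 0.0612 and 0.0564), without Aa-cko replicate 1 (0.119) and when scaled without the 20 most abundant genes (0.0607), in a range that began at 0.0135. Pstk ranged from 2.31 to 5.31 FPKM in overlapping groups (log2 0.27, 95% interval -0.21 to 0.75), and shares exonic bases with Ikzf5 on the opposite strand.

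None of the 3 insertion factors passed, and all 3 fold changes were below 0. Secisbp2, the SECIS-binding protein, was closest, at 8.43, 9.72 and 10.2 FPKM in Aa-flox and 6.40, 6.94 and 8.10 in Aa-cko. Its groups did not overlap (log2 -0.36 ± 0.13, limma adjusted p = 0.0506). It passed without Aa-flox replicate 1 (log2 -0.43, adjusted p = 0.0492) and without Aa-cko replicate 3 (log2 -0.44, adjusted p = 0.0274). It also passed with a filter of mean 5 FPKM (0.0466), without trend and robust moderation (0.0438) and with a replicate block (0.024). The range over all alternatives was 0.024 to 0.18. Eefsec, the elongation factor, had log2 -0.25 (95% interval -0.57 to 0.07), and Secisbp2l, the homologue of Secisbp2, -0.18 (-0.61 to 0.25).

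A further list held 17 factors tied to selenocysteine, its tRNA, SECIS-binding or decay of selenoprotein mRNAs, of which 14 were tested. Of these 2 were higher and 8 lower (median log2 -0.44), beside 19.2% and 23.2% of all genes. The 4 with the smallest p were Sars1, which charges the tRNA with serine (87.8 to 52.7 FPKM, log2 -0.73 ± 0.11), Elavl1 (-0.48 ± 0.09) and Ncl (-0.40 ± 0.09), RNA-binding proteins, and Eif4a3 (-0.52 ± 0.11), of the exon junction complex. All 4 serve many other RNAs besides those of selenoproteins. The 2 that rose were Trnau1ap, which associates with the selenocysteine tRNA (log2 0.52 ± 0.14, limma adjusted p = 0.0158), and Xpo1, a nuclear exporter.

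The selenoproteins were also grouped by how selenium shortage is known to affect them. Of 6 that are readily lost (Gpx1, Gpx3, Msrb1, Selenoh, Selenot and Selenow), 2 were higher and 4 did not pass, with a median log2 of 0.29, where 19.2% of all genes were higher and 23.2% lower. Of 3 that are retained (Gpx4, Txnrd1 and Txnrd2), 1 was lower and 2 did not pass. A UGA codon can also expose an mRNA to nonsense-mediated decay when it lies more than about 50 bases before the last exon junction. That held for 14 of the 24 genes: Gpx4, with 342 bases to the last junction, 3 of the 5 that rose (Gpx1 with 105, Selenof with 78 and Selenop with 357), 7 of the 13 that did not pass and 3 of the 5 not tested. Msrb1, with 34 bases, and Sephs2, with a single exon, were outside it. The base after UGA was G in 12 of the 24 genes, Gpx4 and Gpx1 among them.

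None of the tested genes around Gpx4 on chromosome 10 fell as far as it did. Within 150 kb, a distance chosen after the values were seen, 16 other genes were tested. Of these 4 were higher, 2 lower and 10 did not pass, beside 19.2% higher and 23.2% lower over all genes. Sbno2, on the opposite strand with its nearest end 0.553 kb beyond Gpx4, had log2 0.35 ± 0.09 (adjusted p = 0.0132), a call lost without Aa-cko replicate 1 (adjusted p = 0.0683, the highest of a range from 0.00413). Polr2e, the nearest tested gene on the other side, had log2 0.06 ± 0.13, with -0.02 without Aa-flox replicate 3 and -0.06 without Aa-cko replicate 2, and Stk11 lies 59.4 kb away. The other higher genes were Abca7 (0.39), Arhgap45 (0.29) and Fam174c (0.66), and the lower genes Wdr18 (-0.43) and Midn (-0.53). Except for Fam174c, these calls were lost without one or more single libraries. Gpx4 has 2 annotated pseudogenes with at least 90% identity over at least 50% of its transcript, neither of them in the table, and whether reads were shared with them is not given in the sources used here.

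**Figure D4:**
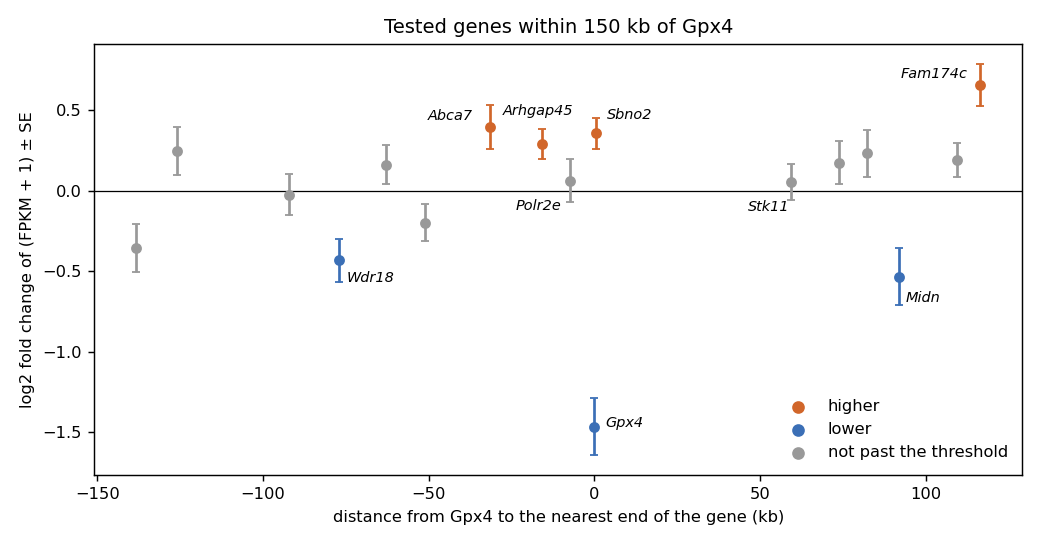
Log2 fold change of (FPKM + 1) ± SE of the tested genes within 150 kb of Gpx4, against the distance in kb from Gpx4 to their nearest end. Gpx4, at -1.47, lies below its neighbours, whose values run from -0.53 to 0.66.

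The partner systems of these enzymes were read from lists of the same pathway. Of 8 genes of cystine uptake and glutathione synthesis and reduction, which supply the electron donor of Gpx4, 3 were higher and 3 lower, where 19.2% of all genes were higher and 23.2% lower. The cystine importer Slc7a11 fell from 186 ± 8.71 to 81.1 ± 18.6 FPKM (log2 -1.21 ± 0.15), its partner chain Slc3a2 by 0.83 on the log2 scale, and glutathione synthetase Gss from 26 ± 1.15 to 9.77 ± 1.38 FPKM (log2 -1.33 ± 0.12, limma adjusted p = 7.33e-05). Glutathione reductase Gsr rose from 65.5 ± 1.28 to 98.2 ± 4.19 FPKM (log2 0.58 ± 0.09). Of 14 thioredoxin system genes 7 (50%) were higher, beside the 19.2% of all genes, 0 were lower and 7 did not pass, with a median log2 of 0.35. They included Txnip, which inhibits thioredoxin (20.2 ± 2.85 to 62.4 ± 13.6 FPKM, log2 1.57 ± 0.16), sulfiredoxin Srxn1 (0.80 ± 0.09), thioredoxin Txn1 (0.48 ± 0.12) and Txndc17 (0.43 ± 0.11). The call of Txndc17 was lost without Aa-flox replicate 3 (adjusted p = 0.0571) and without Aa-cko replicate 1 (adjusted p = 0.0655, the highest of a range from 0.00216).

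Of 13 tested genes of lipid peroxidation and its suppressors 5 were higher, 1 lower (Lpcat3) and 7 did not pass, with a median log2 of 0.13, and 42.4% of all genes were called in either direction (19.2% higher, 23.2% lower). Alox5, the 5-lipoxygenase, rose from 2.69 ± 0.615 to 14.1 ± 0.474 FPKM, and Acsl4, which activates polyunsaturated fatty acids for membrane lipids, from 33.8 ± 3.45 to 71.4 ± 9.99. Aifm2, the FSP1 enzyme that suppresses ferroptosis without Gpx4, rose by log2 0.87 ± 0.14, and Nfe2l2, the NRF2 factor of antioxidant genes, by 0.88 ± 0.10. Cysteine-containing homologues of the selenoproteins showed no call among 4 tested of 7 (Msra 0.29, Gpx7 0.37, Msrb2 -0.20 and Gpx8 -0.09), and Gpx5 and Gpx6 were listed at 0. The sign of Gpx8 turned without Aa-flox replicate 3 (0.02) and without Aa-cko replicate 3 (0.22). Of 10 tested partners of endoplasmic reticulum selenoproteins 2 were higher (Derl3, log2 0.72, and Ero1b, 0.66), 1 was lower (Ero1a, -0.74) and 7 did not pass, Zdhhc6 (-0.17), the partner of Selenok, among them. These shares, 20% and 10%, were near or below those of all genes, and Derl3 is also one of the plasma cell markers.

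Markers of several cell types moved in the same libraries as Gpx1, Msrb1, Selenop and Gpx4. Over all genes 19.2% were higher and 23.2% lower. All 12 alveolar macrophage markers were higher, their summed level going from 2618 to 3057 FPKM in Aa-flox to 6264 to 8448 in Aa-cko, and so were all 11 tested of 12 monocyte and interstitial macrophage markers (1453 to 1728 against 2216 to 2635 FPKM) and all 9 tested of 10 B cell markers (84.7 to 112 against 212 to 264 FPKM). Such sums weigh genes by their level. Chil3 alone, with means of 2551 and 6325 FPKM, was most of the alveolar macrophage sum in either group. Cd14, which rose from a mean of 1108 to 1430 FPKM (log2 0.37), was most of the monocyte and interstitial macrophage sum. The median log2 fold change was 1.1 for alveolar macrophage markers and 1.1 for monocyte and interstitial macrophage markers. Of 12 T cell markers 9 were lower, 0 higher and 3 did not pass (2571 to 2987 against 1312 to 1556 FPKM). Of 13 markers of group 2 innate lymphoid cells 5 were higher (Arg1, Il17rb, Il7r, Rora and Klrg1). Another 5 were lower (Gata3, Il1rl1, Il2ra, Il5 and Il13) and 3 did not pass. Their sum was 898 to 1004 FPKM in Aa-flox and 1092 to 1161 in Aa-cko. It was higher through Arg1, a gene macrophages also express. Without Arg1 the other 12 markers summed to 519 to 583 FPKM in Aa-flox and 311 to 361 in Aa-cko, though they too moved both ways. Of 10 neutrophil markers 8 were higher (3160 to 4018 against 4219 to 6088 FPKM), as were 6 of 9 tested dendritic cell markers (120 to 134 against 235 to 256 FPKM). Higher as well were 8 of 9 tested plasma cell markers (255 to 281 against 450 to 510 FPKM) and all 4 tested erythroid markers (18.6 to 21.8 against 42.3 to 69.8 FPKM). Of 7 tested markers of type 2 alveolar cells 4 were higher and 1 lower (46.9 to 51.8 against 65.4 to 78.0 FPKM), and of 9 of airway epithelium 4 were higher and 1 lower (146 to 174 against 167 to 224 FPKM). On group means Napsa, which rose from 26.6 to 52.2 FPKM, was most of the type 2 sum. It was not in Aa-flox replicate 3, where Napsa read 23.3 FPKM and Etv5 16.6. The lower type 2 marker, Etv5, went from a mean of 12.2 to 2.26 FPKM, and Sftpc was not among the called type 2 markers. Scgb1a1, with means of 125 and 143 FPKM, was most of the airway sum and did not pass. Endothelial markers were 2 higher and 1 lower of 5 tested, and fibroblast markers 1 higher of 5. None of these markers was at 0 in all libraries. Macrophages are known to express Gpx1, Msrb1 and Selenop, and the part of these cells in the changes of the selenoprotein genes was not tested.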

How the data were processed

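The authors deposited 1 table of FPKM values, with 21965 genes as rows and 6 mouse libraries as columns. The submitters' processing notes name the build mm10, and libraries were made from total RNA with a SMARTer mRNA kit, per the labels' protocols. The aligner, the quantifier, the gene models and the use of strand in counting are each not given in the sources used here. Columns were assigned by their names. GENCODE M21, on the same assembly, held 21806 of the gene identifiers and gave positions, selenocysteine codons and transcripts.

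Depth was inferred from genes with 1 annotated transcript: at 14.1 to 17.3 M fragments, 89.7 to 91.9% of their low values lay within 0.1 of a whole fragment, where 20.0% would by chance. Lengths used for genes with several transcripts could not be recovered, so no count test was run. For members the union of exons gives about 45.6 fragments in the lowest library for Selenom and 1714 for Gpx4.

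Genes at 1 FPKM or more in 3 or more libraries (10849) were tested as log2(FPKM + 1) with limma 3.58.1 (R 4.3.3). Its trend and robust options were on and group was the only term, with Benjamini-Hochberg adjustment and a threshold of 0.05. The same steps were run on simulated data with far fewer changed genes than were called here. That run does not cover shifts of whole cell types. Over all genes 2087 were higher (45.3% of calls) and 2515 lower, which turned to 2485 higher (55.6%) and 1987 lower under upper quartile scaling. Pseudogene copies were sought with blastn 2.17.0. Python 3.11.15, pandas 2.3.3 and matplotlib 3.10.9 served for tables and plots. Named genes are all members, up to 4 genes per pathway list by smallest p, and at most 2 per marker list by highest mean FPKM. Members and lists were chosen with earlier results of these data known. Sftpc, Stk11, the neighbours of Gpx4, genes overlapping members, Trnau1ap, Xpo1, Lpcat3, Gpx5 and Gpx6 were named outside that rule, after their values were seen. So were the called markers of group 2 innate lymphoid cells other than Arg1, and the sum without Arg1 was added then too.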

Additional observations from a re-analysis of the deposited data

How the results depend on the processing

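The fall of Gpx4 kept its direction and its call in all 16 alternatives, with log2 fold changes from -1.52 to -1.37 over settings of scaling, filter, pseudocount, moderation, threshold and block, and from -1.65 to -1.34 without single libraries. The rises of Gpx1, Msrb1, Selenop and Sephs2 and the fall of Sephs1 also kept their calls in all 16. The count of selenoproteins lower in Aa-cko was 1 in every alternative. The count higher, 5 as reported, was 8 under upper quartile scaling and 8 with a replicate block, and lay between 4 and 8 without single libraries, being 8 without Aa-cko replicate 3. The genes added in these 3 cases were Selenom, Selenos and Selenow. The counts of members lower and higher, 3 and 6, ran from 2 to 4 and from 4 to 9. The median over the tested members stayed between 0.05 and 0.21. Replicate numbers are shared by the groups, but deviations of same-numbered libraries from their group means correlated at -0.018, 0.188 and 0.522, and Aa-flox replicate 1 correlated best with Aa-cko replicate 2 (0.365), so the numbers were not taken as pairs. With the block the members called were 4 lower and 9 higher.

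Signs turned only for values that passed in no setting: Selenot (-0.0096 when scaled without the 20 most abundant genes) and, without single libraries, Txnrd2 (-0.1326 to 0.3649), Txnrd3 (-0.0071 to 0.1233), Gpx8 (-0.3407 to 0.2228), Polr2e (-0.0599 to 0.1424) and Stk11 (-0.0136 to 0.1373). The cause was not tested. How far depth limits the members was not tested.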
